A study of Mus musculus with 12 samples.

Results

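The metalloproteinase genes and their inhibitors examined here are 10 genes, taken by symbol from the table of raw counts: the matrix metalloproteinases *Mmp8*, *Mmp9*, *Mmp12*, *Mmp13*, *Mmp14* and *Mmp19*, the tissue inhibitors *Timp1* and *Timp2*, and the membrane proteases *Adam8* and *Adam17*. They were matched to Ensembl identifiers through GENCODE M21, and they are 10 of 53379 genes listed. All 10 passed the filter on low counts and were among the 12386 genes tested. RNA was measured in bone marrow-derived macrophages (BMDMs) of 4 adult male C57Bl/6J mice, in 3 groups of 4 libraries: untreated, 1 μM fenoterol for 1 h, and 1 μM fenoterol for 4 h. Fenoterol is an agonist of the β2-adrenergic receptor. Marrow cells had grown for a week in L929-conditioned medium, were replated overnight, and received fenoterol with no change of medium, so that all 3 groups share this medium. The 3 libraries of one number come from 1 mouse, and each library is a culture of 1 mouse. The labels give no transgene or deletion for any group, and the harvest time of the untreated cultures is not given in the sources used here.

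Matrix metalloproteinases are zinc enzymes that are made as inactive precursors and, once activated, cut collagens, elastin and other matrix proteins, as well as chemokines and cytokines. TIMP proteins bind the active site and block it. ADAM proteases sit in the cell membrane and release the outer part of membrane proteins, among them TNF, cytokine receptors and adhesion molecules. Macrophages use all 3 families to move through tissue, to remodel it and to set which signals leave the cell surface. RNA levels do not measure activation or inhibition of these enzymes. In bulk RNA, fewer cells with a transcript and less of it per cell cannot be told apart.

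The cells carried macrophage RNA. All 10 macrophage markers had counts in every group, and their summed normalized count ranged from 770898 to 949023 over the 12 libraries. By edgeR at an adjusted p under 0.05, 1 of the 10 rose and 1 fell at 1 h, beside 10.0% and 10.1% of all genes tested. At 4 h 3 rose and 5 fell, beside 19.7% and 20.4% of all genes. From untreated to 4 h, *Cd14* went from a mean of 12830 to 73354 and *Mertk* from 3860 to 1353 normalized counts. The 12 neutrophil and granulocyte precursor markers summed to 674 to 1339, with *Ly6g*, which defines mature mouse neutrophils, at 0 to 1 count per library, *S100a9* at 218 to 508 and *Ngp* at 145 to 372. The 8 stromal markers summed to 474 to 1470, with *Lum* at 0, *Col1a1* at 166 to 562 counts and *Col1a2* at 180 to 798. None of the 9 neutrophil and 5 stromal markers tested differed between fenoterol and untreated at either time by edgeR, DESeq2 or limma-voom, and 0 had an unadjusted edgeR p under 0.05. Libraries held 14580533 to 24153284 counts. A normalized count here is a count scaled by the TMM method to the mean library size, and RPKM is the same scaling per kilobase of exon, used wherever levels of different genes are set side by side.

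The promoters of 5 members are shown because their RNA rose (*Adam8*, *Timp1*) or fell (*Mmp13*, *Mmp12*, *Adam17*) at 4 h; *Mmp19*, which also rose, and *Mmp9* had no window in the table used. Each is the stretch of 250 bases before a RefSeq transcription start in GRCm38.p6, read on the strand of the gene. Each holds no base of a GENCODE exon of the same gene, and exons of other genes were not checked. Capitals mark matches on either strand to any of 5 motifs: the AP-1 site TGANTCA, the cAMP response element (CRE) TGACGTCA, its shorter core TGACG, which lies within the full element, the TATA box TATAAA and the ETS site AGGAAG. They lie at chr7:139992563-139992812 (minus strand) for *Adam8*, chrX:20869916-20870165 for *Timp1*, chr9:7272264-7272513 for *Mmp13*, chr9:7347124-7347373 for the second of 2 *Mmp12* starts, and chr12:21373633-21373882 (minus strand) for *Adam17*.
Adam8: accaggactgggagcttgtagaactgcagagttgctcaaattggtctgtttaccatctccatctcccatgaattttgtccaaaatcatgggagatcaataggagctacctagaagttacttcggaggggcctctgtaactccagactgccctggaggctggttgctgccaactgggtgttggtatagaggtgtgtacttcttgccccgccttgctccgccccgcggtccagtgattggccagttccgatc
Timp1: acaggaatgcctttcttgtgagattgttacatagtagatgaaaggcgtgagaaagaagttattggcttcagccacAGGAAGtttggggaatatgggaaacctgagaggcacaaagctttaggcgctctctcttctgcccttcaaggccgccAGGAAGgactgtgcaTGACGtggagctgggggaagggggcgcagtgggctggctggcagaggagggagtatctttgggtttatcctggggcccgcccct
Mmp13: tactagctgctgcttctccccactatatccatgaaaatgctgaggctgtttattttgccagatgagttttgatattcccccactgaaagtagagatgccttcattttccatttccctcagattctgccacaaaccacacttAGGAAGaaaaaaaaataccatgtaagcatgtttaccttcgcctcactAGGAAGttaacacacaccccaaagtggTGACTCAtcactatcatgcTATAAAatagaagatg
Mmp12: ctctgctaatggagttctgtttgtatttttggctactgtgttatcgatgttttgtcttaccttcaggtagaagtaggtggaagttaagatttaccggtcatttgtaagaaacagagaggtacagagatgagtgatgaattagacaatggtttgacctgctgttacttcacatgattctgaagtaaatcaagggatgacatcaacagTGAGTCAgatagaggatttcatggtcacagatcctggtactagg
Adam17: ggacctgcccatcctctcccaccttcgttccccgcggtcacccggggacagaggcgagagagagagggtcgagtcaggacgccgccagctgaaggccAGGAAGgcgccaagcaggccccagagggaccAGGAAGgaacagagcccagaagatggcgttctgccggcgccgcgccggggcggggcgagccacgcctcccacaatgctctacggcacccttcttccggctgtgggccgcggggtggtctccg

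In the *Mmp13* window the AP-1 site TGACTCA lay 35 to 29 bases before the start, with TATAAA at 16 to 11 bases and ETS matches at 109 to 104 and 62 to 57 bases before it. The second *Mmp12* window held an AP-1 match, TGAGTCA, 44 to 38 bases before the start, and the first held none. *Timp1* had a TGACG core 84 to 80 bases before the start and 2 ETS matches. *Adam17* had 2 ETS matches, and the *Adam8* window had no match to any of the 5 motifs. Windows were found for 8 of the 10 members, 9 windows in all, and none held the full CRE. Over 32851 mouse promoters of the same length, 6.75% held the AP-1 letters, 1.55% the CRE, 17.8% the TGACG core, 12.4% the TATA box and 29.5% the ETS letters. A match is a description of the letters and was not measured as a binding site.

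In untreated BMDMs, *Adam8* and *Timp2* had the highest RPKM of the 10 genes, 179 ± 30.2 and 175 ± 2.23 (SD, n = 4), and their ranges overlapped. Both lay above 98.4% of the genes tested. *Mmp12*, the macrophage metalloelastase, followed at 67.1 ± 20.6 RPKM and overlapped with *Adam17*, which encodes the TNF-converting enzyme, at 59.4 ± 3.75. *Mmp19* at 19.0 ± 2.25 and *Mmp9* at 15.3 ± 2.34 overlapped with each other and were below *Adam17* in every library. *Mmp13* at 5.75 ± 0.651, *Mmp8* at 3.96 ± 1.23 and *Timp1* at 2.66 ± 0.651 RPKM overlapped in steps, and *Mmp14* was lowest at 0.993 ± 0.267, under all libraries of *Timp1*. At 4 h the order was *Adam8* at 893 ± 35.0, *Timp2* at 164 ± 6.45, *Mmp19* at 101 ± 22.9, then *Mmp12* at 35.4 ± 8.43 and *Adam17* at 35.0 ± 2.08, which overlapped, and *Mmp9* at 15.1 ± 2.29 RPKM. *Mmp19* had moved from the fifth to the third place, and *Adam8* no longer overlapped with *Timp2*.

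**Figure D1:**
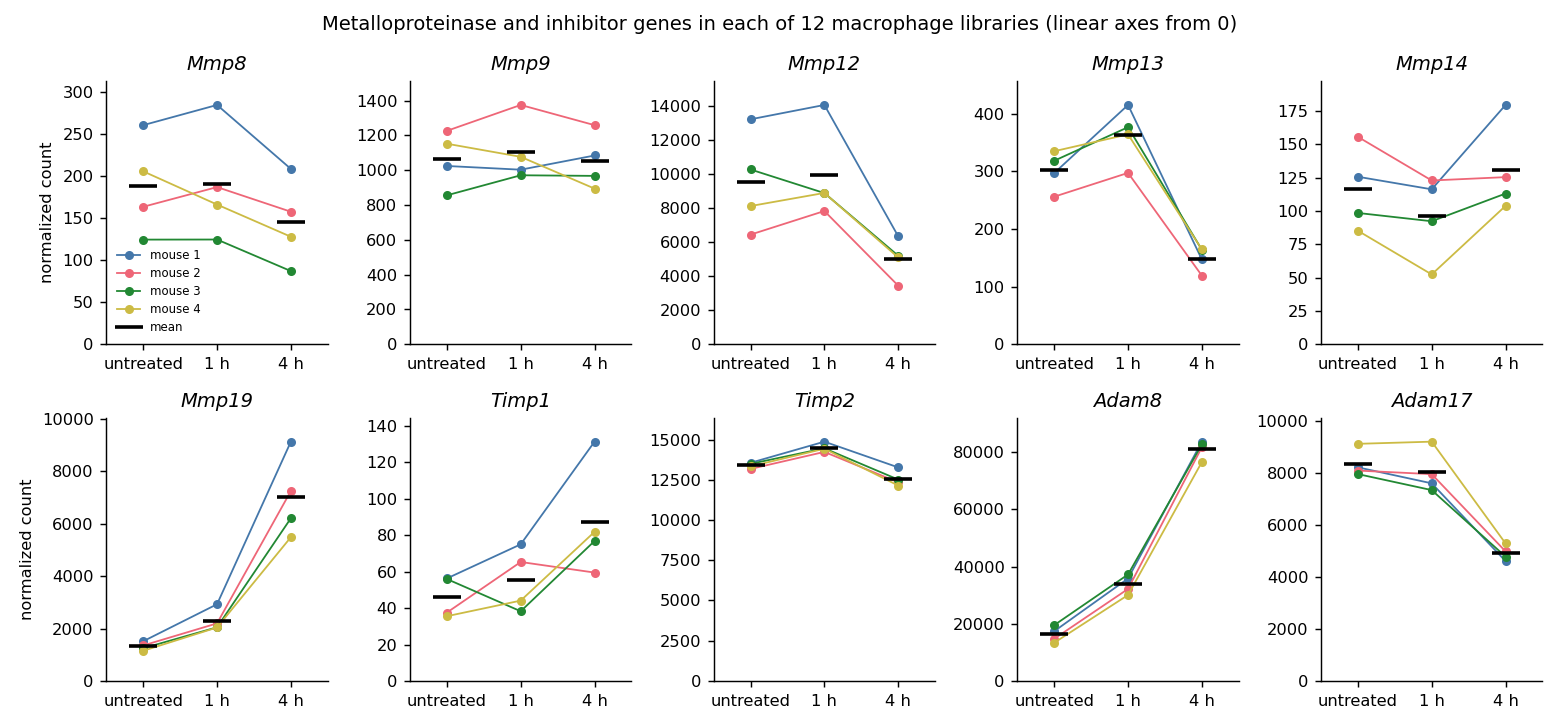
Normalized counts (linear axis from 0, a scale of its own for each gene) of the 10 genes in untreated BMDMs and after 1 h and 4 h of fenoterol. Points are libraries, lines join the libraries of 1 mouse, and black bars are group means. *Mmp19* and *Adam8* climb at both steps in all 4 mice, *Mmp12*, *Mmp13* and *Adam17* drop at 4 h in all 4, and the lines of *Mmp9* cross.

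After 1 h, 2 members rose and 0 fell by edgeR's quasi-likelihood test at an adjusted p under 0.05, beside 10.0% of all genes tested called higher and 10.1% called lower. At an unadjusted p under 0.05, 3 were higher and 0 lower, and DESeq2 called 3 higher and limma-voom 2, with 0 lower by either. With the mouse as a block, 4 members were higher and 0 lower, beside 13.3% and 13.7% of all genes. After 4 h, 3 rose (*Mmp19*, *Adam8*, *Timp1*) and 3 fell (*Mmp12*, *Mmp13*, *Adam17*), beside 19.7% of all genes called higher and 20.4% called lower, and with the mouse as a block 3 rose and 4 fell, beside 23.6% and 23.8%. Between 1 h and 4 h, 2 members rose and 4 fell, beside 18.7% and 19.8% of all genes, and with the mouse as a block 4 rose and 5 fell, beside 23.0% and 23.6%. The median log2 fold change of the members was 0.09 at 1 h and -0.05 at 4 h, and that of all genes tested 0.00 at both.

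*Adam8* encodes a protease of myeloid cells that also acts in cell adhesion. Its gene is at chr7:139978932-139992562 on the minus strand (all gene coordinates are GRCm38, from GENCODE M21). Its normalized count in mice 1 to 4 was 17394, 14737, 19516 and 13361 untreated, 35844, 32197, 37252 and 30074 after 1 h, and 83744, 81795, 82773 and 76609 after 4 h. No library of one group reached the range of another. Its log2 fold change was 1.06 (SE 0.10, edgeR adjusted p = 2.66e-06) at 1 h and 2.32 (SE 0.11, adjusted p = 5.34e-10) at 4 h (a fold change with a 95% confidence interval of 4.26 to 5.86). From 1 h to 4 h it rose by a further 1.26 (SE 0.10, adjusted p = 3.00e-07). The SD between mice was 2745 around a mean of 16252 untreated and 3182 around 81230 at 4 h. Of all genes tested, 99.6% had a lower RPKM than *Adam8* in the 4 h group. The gene shares 1.0% of its exon bases with *Gm16201* on the opposite strand, which held 1543 counts over the 12 libraries against 540755 for *Adam8* and rose by 0.78 (SE 0.13, adjusted p = 0.000656) at 1 h and 1.44 (SE 0.13, adjusted p = 5.73e-07) at 4 h.

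*Mmp19* encodes a secreted protease that cuts basement membrane proteins. It lies at chr10:128790910-128800824 on the plus strand. In mice 1 to 4 it had normalized counts of 1515, 1354, 1248 and 1150 untreated, 2928, 2197, 2048 and 2041 after 1 h, and 9137, 7253, 6212 and 5489 after 4 h. The groups did not overlap, and mouse 1 was highest and mouse 4 lowest in each. Against untreated BMDMs the log2 fold change was 0.81 (SE 0.15, edgeR adjusted p = 0.00148) at 1 h and 2.41 (SE 0.16, adjusted p = 1.79e-08) at 4 h, a fold of 5.33 with a 95% confidence interval of 4.21 to 6.74. In this fit 99.0% of all genes tested had a lower log2 fold change at 4 h. From 1 h to 4 h it rose by 1.61 (SE 0.15, adjusted p = 1.37e-06). On the opposite strand *Tmem198b* shares 22.3% of the exon bases of *Mmp19*, and the strand setting of the counting is not given in the sources used here. *Tmem198b* held 9008 counts over the 12 libraries against 43454 for *Mmp19*, and its log2 fold change was 0.09 (SE 0.08, adjusted p = 0.540) at 1 h and 0.67 (SE 0.08, adjusted p = 9.21e-06) at 4 h.

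*Adam17*, whose product releases TNF, both TNF receptors and other proteins from the cell surface, moved the other way from *Adam8*. It lies at chr12:21323509-21373632 on the minus strand. Mice 1 to 4 had normalized counts of 8205, 8081, 7947 and 9109 untreated, 7591, 7944, 7331 and 9192 after 1 h, and 4604, 4977, 4775 and 5284 after 4 h. Untreated and 1 h libraries overlapped, and every 4 h library was below both. Relative to untreated BMDMs, *Adam17* had a log2 fold change of -0.06 (SE 0.07, edgeR adjusted p = 0.675) at 1 h, with a 95% confidence interval of -0.21 to 0.10, and of -0.76 (SE 0.07, adjusted p = 1.07e-06) at 4 h. Between 1 h and 4 h it was -0.71 (SE 0.07, adjusted p = 3.37e-06). *Iah1* on the opposite strand shares 4.3% of the exon bases of *Adam17* and held 7872 counts against 84187. Its log2 fold change was 0.00 (SE 0.09, adjusted p = 0.998) at 1 h and -0.52 (SE 0.09, adjusted p = 0.000193) at 4 h. The part of these overlapping genes in the counts of *Adam8*, *Mmp19* and *Adam17* was not tested. The RPKM of *Adam8* was 3.03 ± 0.650 times that of *Adam17* untreated, 6.60 ± 1.23 times at 1 h and 25.6 ± 2.44 times at 4 h (SD, n = 4 mice), and the 3 ranges did not overlap.

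**Figure D2:**
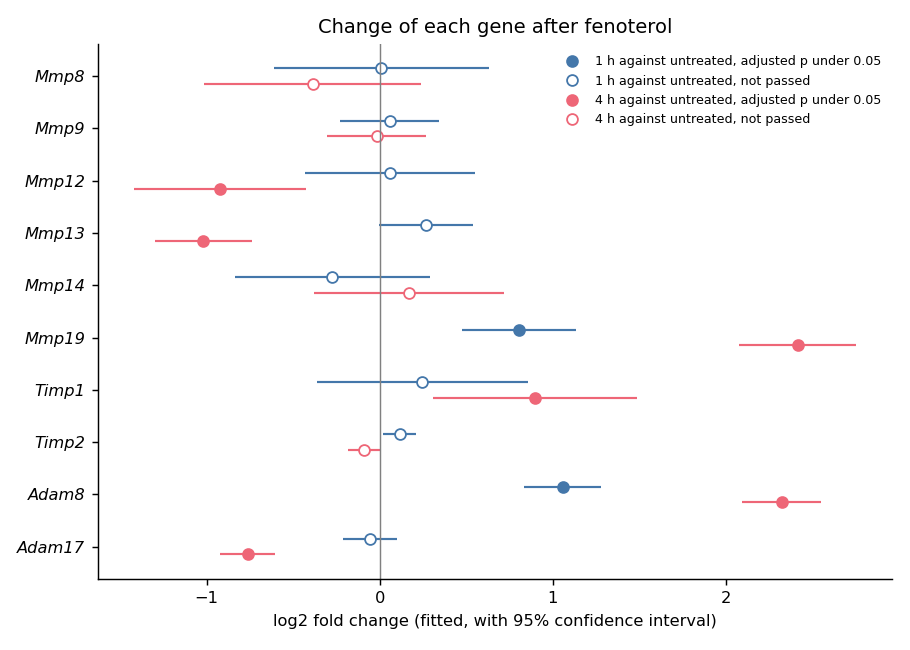
Fitted log2 fold changes (horizontal axis) of the 10 genes at 1 h (blue) and 4 h (red) against untreated BMDMs, with 95% confidence intervals. Filled points passed an adjusted p under 0.05: *Mmp19* and *Adam8* at both times, and *Mmp12*, *Mmp13*, *Timp1* and *Adam17* at 4 h. The interval of *Mmp8* at 4 h runs from -1.01 to 0.24.

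*Mmp12*, whose product degrades elastin and is made mainly by macrophages, fell at 4 h. It lies at chr9:7344381-7369499 on the plus strand. Its normalized count in mice 1 to 4 was 13238, 6451, 10284 and 8132 untreated, 14083, 7840, 8896 and 8904 after 1 h, and 6353, 3445, 5207 and 5105 after 4 h. The mice differed widely, with mouse 1 highest and mouse 2 lowest in each group, and the highest 4 h library, 6353, was just below the lowest untreated one, 6451. Within each mouse the log2 ratio of 4 h to untreated was -0.67 to -1.06. The fitted log2 fold change was 0.06 (SE 0.23, edgeR adjusted p = 0.907) at 1 h and -0.92 (SE 0.23, adjusted p = 0.00514) at 4 h, a ratio of 0.528 in mean normalized count. With the mouse as a block the log2 fold change at 4 h was -0.90 with an SE of 0.07. From 1 h to 4 h *Mmp12* changed by -0.98 (SE 0.23, adjusted p = 0.00378).

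*Mmp13* encodes a collagenase. It lies at chr9:7272514-7283331 on the plus strand. Normalized counts in mice 1 to 4 were 297, 256, 318 and 335 untreated, 415, 297, 377 and 364 after 1 h, and 147, 119, 164 and 165 after 4 h. It was higher at 1 h than untreated in each of the 4 mice, though the groups overlapped, and every 4 h library was below every other. The log2 fold change at 1 h was 0.27 (SE 0.13, edgeR adjusted p = 0.169), and with the mouse as a block it passed (0.27, adjusted p = 0.0217). At 4 h it fell by 1.02 (SE 0.13, adjusted p = 1.96e-05) and from 1 h to 4 h by 1.29 (SE 0.13, adjusted p = 2.66e-06).

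*Timp1* and *Timp2* encode inhibitors of the matrix metalloproteinases, and TIMP2 also takes part with MMP14 in activating MMP2. *Timp1*, at chrX:20870166-20874735 on the plus strand, was a low gene, with 28 to 126 raw counts per library. In mice 1 to 4 the normalized count was 56.3, 37.5, 56.0 and 35.5 untreated, 75.0, 65.3, 38.3 and 44.1 after 1 h, and 131, 59.5, 76.8 and 81.9 after 4 h. At 4 h all libraries were above the untreated ones, and mouse 1 stood highest. In the fit, *Timp1* changed by 0.25 (SE 0.28, edgeR adjusted p = 0.630) at 1 h and 0.90 (SE 0.27, adjusted p = 0.0175) at 4 h. The call at 4 h was lost without the untreated library of mouse 4 (0.78, adjusted p = 0.0576) and without the 4 h library of mouse 1 (0.64, adjusted p = 0.0670). From 1 h to 4 h the change was 0.65 (SE 0.27, adjusted p = 0.0730), with adjusted p = 0.0134 with the mouse as a block, 0.0396 without the 1 h library of mouse 1 and 0.0378 without the 4 h library of mouse 2.

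Stromal cells also make *Timp1*, and the 8 stromal markers summed in mice 1 to 4 to 1470, 1165, 993 and 474 untreated and to 1423, 744, 1015 and 527 at 4 h. The sum was highest in mouse 1 in both groups, as was *Timp1*, and at 4 h it was lower than untreated in mice 1 and 2 and higher in mice 3 and 4. The neutrophil and granulocyte precursor marker sum was also highest in mouse 1 in both groups, at 1339 and 1210. *Timp1* lies within *Syn1*, which is on the opposite strand and shares no exon base with it. *Syn1* held 9362 counts over the 12 libraries, *Timp1* 768, and *Syn1* rose at 4 h by 1.26 on the log2 scale (SE 0.09, edgeR adjusted p = 3.43e-08). The part of stromal cells and of *Syn1* in the counts of *Timp1* was not tested.

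*Timp2*, at chr11:118301069-118355740 on the minus strand, had a narrow spread. The 4 mice, from 1 to 4, had 13560, 13179, 13495 and 13338 normalized counts untreated, 14874, 14237, 14459 and 14436 after 1 h, and 13274, 12345, 12517 and 12146 after 4 h. The 1 h libraries were above all the others. The log2 fold change at 1 h was 0.11 (SE 0.04, edgeR adjusted p = 0.0843). It passed with the mouse as a block (adjusted p = 0.0408) and with DESeq2 (0.12, adjusted p = 0.0141), while scaling by library size only gave 0.05, which did not pass. At 4 h it was -0.09 (SE 0.04, adjusted p = 0.114), and from 1 h to 4 h *Timp2* fell by 0.21 (SE 0.04, adjusted p = 0.00179), or by 0.11 (adjusted p = 0.0419) with library size only. Per length, *Timp2* stood at 68.9 ± 16.2 times *Timp1* untreated and at 35.3 ± 10.0 times at 4 h, and these ranges did not overlap.

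*Mmp8*, *Mmp9* and *Mmp14* did not pass the main test in any comparison. *Mmp9*, at chr2:164940780-164955850 on the plus strand, encodes gelatinase B. Its normalized count was 856 to 1226 untreated, 971 to 1375 at 1 h and 894 to 1259 at 4 h, with mouse 2 highest in each group. The log2 fold change at 4 h was -0.02 with a 95% confidence interval of -0.30 to 0.27 (edgeR adjusted p = 0.937), and 1 of 4 mice was lower. *Mmp8*, at chr9:7558456-7568485 on the plus strand, encodes the neutrophil collagenase. In mice 1 to 4 its normalized count was 261, 164, 124 and 206 untreated, and 209, 158, 87.0 and 128 at 4 h. The groups overlapped while each of the 4 mice was lower at 4 h. Its log2 fold change was -0.39 (SE 0.29, adjusted p = 0.321), and with the mouse as a block -0.39 (SE 0.11, adjusted p = 0.00818). From 1 h to 4 h it was -0.40 (SE 0.29, adjusted p = 0.316), again lower in each mouse, and passed with the mouse as a block (-0.40, adjusted p = 0.00817).

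*Mmp14*, at chr14:54431612-54445364 on the plus strand, encodes a membrane-bound protease that activates MMP2. Its normalized count in mice 1 to 4 was 126, 155, 98.4 and 85.1 untreated, 116, 123, 92.2 and 52.3 at 1 h, and 179, 125, 113 and 104 at 4 h. Mouse 4 was lowest in each group, and in mouse 4 the stromal marker sum was also lowest in each, at 474, 736 and 527. The same held for the neutrophil and granulocyte precursor marker sum, at 677, 707 and 674, and for *Mmp19* and *Adam8*. The part of stromal or other cells in the counts of *Mmp14* was not tested. The log2 fold change from 1 h to 4 h was 0.44 (SE 0.26, edgeR adjusted p = 0.202), and 0.47 (SE 0.15, adjusted p = 0.0185) with the mouse as a block. Against untreated it was -0.27 (SE 0.26) at 1 h and 0.17 (SE 0.26) at 4 h.

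The makeup of the 6 metalloproteinases among the members turned over with time. Other metalloproteinases are left out of these shares, among them *Mmp27* at 9.85 RPKM untreated and 6.81 RPKM at 4 h. As a mean share of the summed RPKM of the 6, *Mmp12* held 58.9% ± 7.69 (SD, n = 4) untreated, 52.9% ± 4.54 at 1 h and 22.5% ± 4.81 at 4 h. *Mmp19* held 17.2% ± 2.66, 25.5% ± 1.05 and 63.4% ± 4.18. In all 4 mice *Mmp19* was below *Mmp12* untreated and at 1 h, and above it at 4 h. *Mmp9* went from 14.2% ± 4.23 to 9.67% ± 1.65 of the sum with little change in its own level. The sum of the 6 was 112 ± 21.6 RPKM untreated and 159 ± 29.1 at 4 h, with overlapping ranges of 92.3 to 142 and 135 to 201, and it was higher at 4 h in each of the 4 mice.

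**Figure D3:**
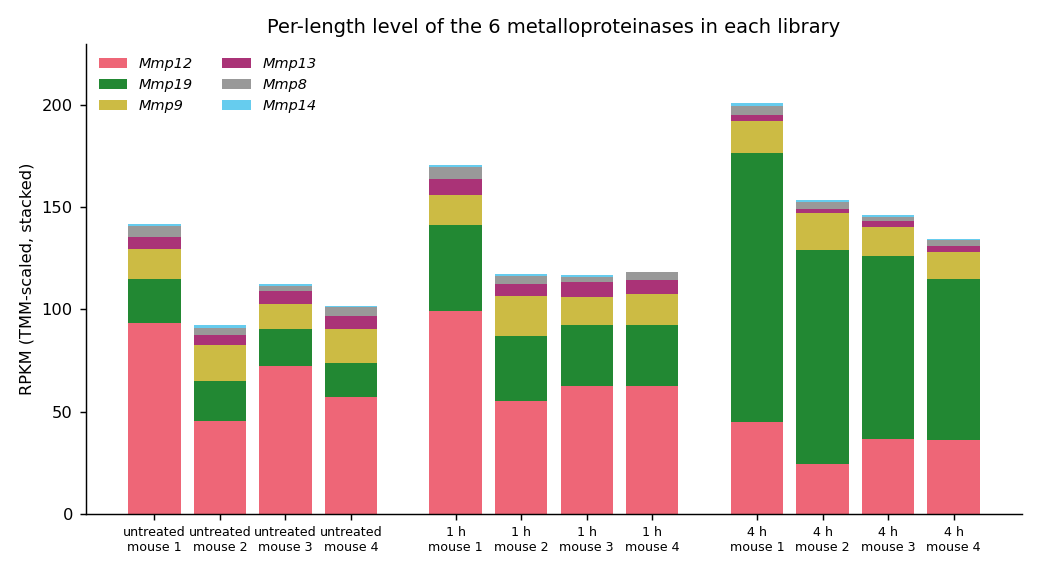
Stacked RPKM (vertical axis, from 0) of the 6 metalloproteinases in each of the 12 libraries, grouped by treatment. The *Mmp12* segment is the largest in all untreated and 1 h libraries, and the *Mmp19* segment in all 4 h libraries.

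*Mmp13*, *Mmp12* and *Mmp8* belong to a cluster of 10 metalloproteinase genes on chromosome 9 that spans 427072 bases. Of these, 4 were tested, 4 had no count in any library (*Mmp1b*, *Mmp3*, *Mmp1a*, *Mmp20*), *Mmp10* had at most 6 counts and *Mmp7* at most 1. At 4 h the log2 fold changes along the chromosome were -1.02 for *Mmp13*, -0.92 for *Mmp12* and -0.39 for *Mmp8*, which did not pass the main test. *Mmp27*, the neighbour of *Mmp8*, had -0.53 (SE 0.15, edgeR adjusted p = 0.0123). With the mouse as a block, *Mmp8* also passed at 4 h (edgeR adjusted p = 0.00818). At 1 h none of the 4 passed by edgeR, DESeq2 or limma-voom without the block, with 0 at an unadjusted p under 0.05 and log2 fold changes of -0.02 to 0.27. *Mmp13* passed at 1 h with the mouse as a block (edgeR adjusted p = 0.0217). *Mmp9*, *Mmp14* and *Mmp19* lie on other chromosomes.

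**Figure D4:**
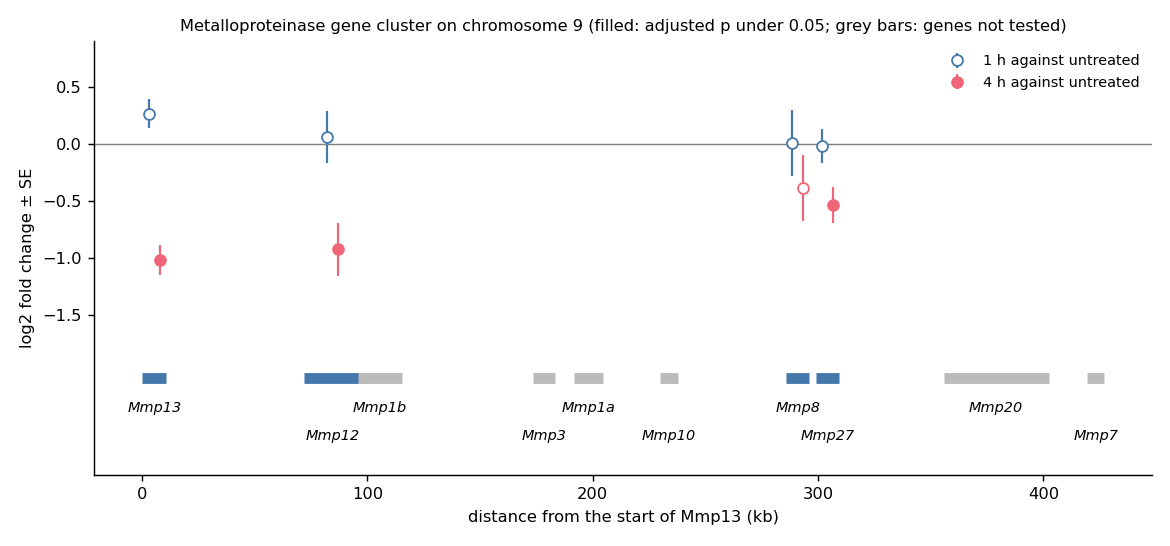
Log2 fold changes ± SE (vertical axis) of the 4 tested genes of the chromosome 9 cluster at 1 h (blue) and 4 h (red), against distance in kb from the start of *Mmp13*; filled points passed an adjusted p under 0.05, and bars below mark the 10 genes, grey where not tested. All 4 red points are below 0, and that of *Mmp8* is open, in the fit without the mouse as a block.

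The counts of related genes stand beside the same shares of all genes tested, 10.0% called higher and 10.1% lower at 1 h, and 19.7% and 20.4% at 4 h. With the mouse as a block these shares were 13.3% and 13.7% at 1 h, and 23.6% and 23.8% at 4 h. No list was tested as a set. Of 17 other metalloproteinases, 4 were tested, and *Mmp27* alone fell at 4 h by edgeR (*Mmp2*, *Mmp11* and *Mmp25* did not pass, though limma-voom called 1 of them higher, and *Mmp25* at 0.90 had adjusted p = 0.0586 and, with the mouse as a block, 0.0410). Of 4 other inhibitors, 2 were tested; *Timp3*, named after its value was seen because it was the 1 call, rose at 4 h by 0.89 (SE 0.27, edgeR adjusted p = 0.0158) from 25.5 to 48.1 normalized counts. Of 11 other ADAM genes, 6 were tested and 3 passed at 4 h. *Adam19* fell from 1147 ± 264 to 301 ± 56.8 normalized counts (-1.92, adjusted p = 3.48e-07) and *Adam33* from 265 ± 32.6 to 125 ± 18.0 (-1.09, adjusted p = 5.25e-06). *Adam10*, which encodes another widely used sheddase, rose from 3374 ± 106 to 4010 ± 313 (0.25, adjusted p = 0.00296). Of 19 ADAMTS genes, which encode secreted matrix proteases, 4 were tested; *Adamts10* fell by 0.54 at 4 h (adjusted p = 0.00101), and *Adamts6*, named after its value was seen, rose from 23.9 to 49.2 normalized counts (1.04, adjusted p = 0.00105). At 1 h none of the 16 genes of these 4 lists passed by edgeR, DESeq2 or limma-voom, and 1 ADAM gene was lower at an unadjusted p under 0.05. With the mouse as a block, 1 ADAMTS gene was lower at 1 h, and at 4 h 1 other metalloproteinase, 2 ADAM genes and 1 ADAMTS gene were higher and 1, 3 and 2 lower.

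Genes whose products carry ADAM17 and ADAM10 to the surface or activate them were also counted. Of 13 partners, 9 were tested, 0 passed at 1 h by edgeR and DESeq2 (1 higher by limma-voom, with the mouse as a block and at an unadjusted p under 0.05), and 2 rose and 2 fell at 4 h. Among all genes tested, 19.7% rose and 20.4% fell at 4 h. *Rhbdf1*, one of the iRhoms that ADAM17 needs to leave the endoplasmic reticulum, fell from 171 ± 30.4 to 89.8 ± 9.97 normalized counts (-0.92, edgeR adjusted p = 0.000241). The other iRhom gene, *Rhbdf2*, stood at 1624 untreated and 1658 at 4 h (0.03, adjusted p = 0.711). *Furin*, which encodes a convertase that removes the inhibitory prodomain, fell by 0.31 (adjusted p = 0.0252), and *Frmd8*, whose product stabilizes iRhoms, rose by 0.20 (adjusted p = 0.0205). *Tspan14*, a tetraspanin partner of ADAM10, rose by 0.34 (adjusted p = 0.000287).

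Plasmin can activate metalloproteinase precursors, and 8 of 9 genes of plasminogen activation were tested. At 1 h 2 rose and 2 fell, and at 4 h 2 rose and 3 fell, or 3 and 3 with the mouse as a block. The shares of all genes tested by edgeR without the block were 10.0% higher and 10.1% lower at 1 h, and 19.7% and 20.4% at 4 h. *Plaur*, the urokinase receptor, went from 501 ± 48.3 normalized counts to 3993 ± 256 at 1 h (2.99, edgeR adjusted p = 5.57e-12) and 2699 ± 270 at 4 h (2.43, adjusted p = 5.13e-11). *Plau*, urokinase itself, fell from 1140 ± 171 to 677 ± 218 at 1 h (-0.75, adjusted p = 0.0168) and 351 ± 85.2 at 4 h (-1.70, adjusted p = 1.50e-05). *Hpn*, which encodes hepsin, fell by 0.79 and 1.27, and *Plgrkt*, a plasminogen receptor, by 0.19 at 4 h (adjusted p = 0.0395). *Plat*, tissue plasminogen activator, also named after its values were seen, stood at 2.40 normalized counts untreated, 35.1 at 1 h and 10.0 at 4 h (adjusted p = 9.12e-05 and 0.0146). *Plg* itself had no count.

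Of 20 genes for proteins that ADAM proteases release from the membrane, 17 were tested, 7 rose and 3 fell at 1 h, and 5 rose and 6 fell at 4 h. With the mouse as a block these were 8 and 4, and 6 and 7. Over all genes tested, edgeR without the block called 10.0% higher and 10.1% lower at 1 h, and 19.7% and 20.4% at 4 h. *Il1r2*, the decoy receptor for interleukin-1, went from 5.77 ± 2.82 normalized counts to 86.0 ± 13.4 at 1 h and 181 ± 73.3 at 4 h (edgeR adjusted p = 1.94e-06 and 4.56e-08). *Cx3cl1*, fractalkine, went from 65.7 ± 3.59 to 126 ± 3.30 and 348 ± 49.0 (adjusted p = 4.31e-05 and 8.57e-10). *Cd44* rose by 0.61 and 0.82. *Tnf*, which encodes the substrate ADAM17 is named for, fell at 4 h from 253 ± 32.3 to 124 ± 21.7 (-1.02, adjusted p = 6.00e-05); at 1 h it was -0.38 (adjusted p = 0.0862), which passed with the mouse as a block (adjusted p = 0.0174). *Mertk*, an efferocytosis receptor, fell at 1 h (-0.20) and at 4 h (-1.51, adjusted p = 5.13e-11), and *Icam1* by 0.71 and 0.81. The list moved both ways, with a median log2 fold change of 0.19 at 1 h and -0.21 at 4 h.

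Cathepsins, the other large group of macrophage proteases, were set beside the metalloproteinases, in a list that also holds the cystatin genes *Cst3* and *Cstb*, whose products inhibit cysteine cathepsins. Of the 14 genes of this list, all tested, 1 rose at 1 h, where with the mouse as a block 1 also fell. At 4 h 1 rose and 3 fell, or 2 and 6 with the mouse as a block. All genes tested had shares of 10.0% higher and 10.1% lower at 1 h, and 19.7% and 20.4% at 4 h, without the block. Neither cystatin passed at either time, with 4 h values of -0.07 for *Cst3* and -0.08 for *Cstb*. *Ctsl* rose from 40606 ± 1337 to 83994 ± 5708 normalized counts at 4 h (1.05, edgeR adjusted p = 1.05e-08). *Ctsc* fell from 16493 ± 1851 to 7569 ± 837 (-1.12, adjusted p = 5.08e-07), *Ctsz* by 0.50 and *Ctsf* by 0.47.

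**Figure D5:**
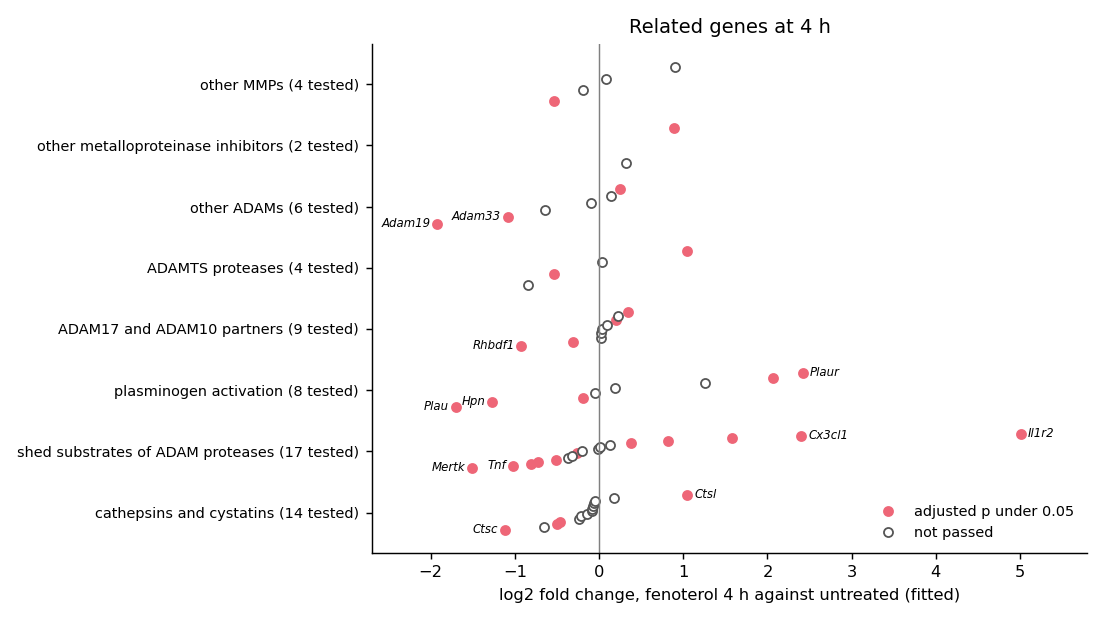
Fitted log2 fold change at 4 h against untreated (horizontal axis) of each tested gene in 8 lists of related genes; filled red points passed an adjusted p under 0.05, open points did not. In 7 of the 8 lists the genes lie on both sides of 0, and both other inhibitors lie above it, with *Il1r2*, *Plaur* and *Cx3cl1* farthest to the right and *Adam19*, *Plau* and *Mertk* farthest to the left among the genes named.

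For the members that passed with at least a 2-fold change, the genes with the most similar pattern over the 12 libraries were found by Pearson's r of log2 CPM among the 10290 genes whose normalized count averaged 50 or more. They are a description, since the 3 groups set most of the variation. *Mmp19* was closest to *Rnf149* (0.990), *Csf2rb2* (0.986) and *Eaf1* (0.984), and *Adam8* to *Rnf149* (0.986), *Il1r1* (0.984) and *Eaf1* (0.984). *Mmp13* was closest to *Pea15a* (0.983), *Trim35* (0.982) and *Cdk6* (0.981). The changes of *Il1r1* on the log2 scale were 2.00 (1 h) and 5.25 (4 h), and those of *Rnf149* 0.45 and 1.25.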

How the data were processed

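The authors sequenced stranded mRNA libraries as single-end reads of 50 bases in 1 lane, mapped them to GRCm38 with TopHat2 2.0.11 and counted reads per gene with HTSeq 0.8.0 (versions per the submitters' processing notes). The deposited values are raw counts, not normalized. Strand option and annotation release are not given in the sources used here. GENCODE M21 supplied symbols, exons and coordinates for 53274 of the 53379 genes, and RefSeq (GRCm38.p6) the promoters.

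From the deposited counts, edgeR 4.0.16 in R 4.3.3 was run with filterByExpr, TMM scaling and the quasi-likelihood test, in 1 fit of 3 group means to all 12 libraries, without covariates, as the methods name none. Benjamini-Hochberg adjustment ran over 12386 genes in each comparison. RPKM divides TMM-scaled counts by union exon length. Libraries of 1 mouse, paired by their labels, had correlated deviations from group means (r 0.290 to 0.561, 12 pairs; other pairs -0.304 to 0.0912). Alternatives were DESeq2 1.42.0, limma-voom (limma 3.58.1), other scalings and filters, the mouse as a block, a fit of only the groups compared, an adjusted p under 0.01 and each library left out. The edgeR steps were also run on simulated counts with known changes. The simulation held no mouse effect, so it cannot show how the steps handle libraries paired by mouse.

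The members and gene lists were chosen with earlier results of these data known. Besides the members, at most the 3 largest rises and falls of a list are named, from genes whose normalized count averaged 50 or more, and for members called with at least 2-fold the 3 most similar genes; *Rhbdf2*, *Timp3*, *Adamts6*, *Plat* and genes that did not pass are named outside this rule, after their values were seen.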

Additional observations from a re-analysis of the deposited data

Results flagged for a closer look

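The log2 fold change differed between 4 h and 1 h, by the edgeR test of the 4 h against the 1 h libraries, for 6 of the 10 genes, 2 higher and 4 lower at 4 h, beside 18.7% and 19.8% of all genes tested. The differences were -0.9821 for *Mmp12*, -1.286 for *Mmp13*, -0.2062 for *Timp2* and -0.7067 for *Adam17*, all lower at 4 h in each of the 4 mice, and 1.6076 for *Mmp19* and 1.2632 for *Adam8*, both higher at 4 h in each of the 4 mice.

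The 1 h library of mouse 1 stood apart for *Mmp12*. Its normalized count of 14083 lay far above those of the other mice (7840 to 8904), with a gap that took 0.8296 of the range of the group, just past Dixon's 95% critical value. It was the 1 flag among 30 groups of 4 libraries, where chance gives about 1.5. Mouse 1 was also the highest for *Mmp12* in the other 2 groups.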

How the results depend on the processing

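Against each of 20 alternatives, *Adam8* and *Mmp19* stayed called higher at 1 h and at 4 h, and *Mmp12*, *Mmp13* and *Adam17* stayed called lower at 4 h, with 4 h ranges of 2.23 to 2.41, 2.26 to 2.52, -1.07 to -0.72, -1.09 to -0.93 and -0.80 to -0.73. *Timp1* at 4 h (0.64 to 1.04) lost its call without 1 of 2 libraries, named above. With the mouse as a replicate block, 4 members were higher at 1 h and 4 were higher at 4 h against 1 h; it changed no call of a member other than those given beside the results. Leaving out single libraries gave 2 members higher and 0 lower at 1 h, 2 to 3 higher and 3 lower at 4 h, and 2 to 3 higher and 4 lower between the times.

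Over all genes tested, scaling by library size only gave 949 higher and 1969 lower at 1 h in place of 1242 and 1251, and 3503 higher and 1830 lower from 1 h to 4 h in place of 2320 and 2453, with the median moved by -0.07 and 0.09; *Timp1* then passed between the times (0.74, adjusted p = 0.0366). An adjusted p under 0.01 left 714 genes lower at 1 h and 1498 higher from 1 h to 4 h, and *Timp1* at 4 h no longer passed.

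The signs that turned were all of genes that did not pass. With single libraries left out, the lowest and highest values were -0.2503 and 0.2131 for *Mmp8*, -0.0626 and 0.1304 for *Mmp9* and -0.1569 and 0.2602 for *Mmp12* at 1 h, -0.1197 and 0.0557 for *Mmp9* and -0.0225 and 0.3296 for *Mmp14* at 4 h, and -0.1719 and 0.0456 for *Mmp9* between the times. With library size only, *Mmp8*, *Mmp9* and *Mmp12* at 1 h had -0.0613, -0.0127 and -0.0097, and *Mmp9* had 0.005 at 4 h and 0.0177 between the times; with limma-voom *Mmp8* at 1 h had -0.0232. The causes were not tested. With 28 to 126 counts per library, low counts limit the precision of *Timp1*, and their part beside the spread between mice was not tested. The harvest time of untreated cultures is not given in the sources used here, so time in culture and fenoterol cannot be told apart, and RNA says nothing of protease activity.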
